A study of Mus musculus with 6 samples.

Results

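The globin and terminal erythroid genes are the set of genes that a red cell precursor switches on late in its maturation: the adult alpha-globin copies Hba-a1 and Hba-a2, the adult beta-globin copies Hbb-bs and Hbb-bt, and Alas2, Bpgm, Slc4a1 and Ahsp. They were chosen by name as 8 genes from a table of 24965, with earlier results of the same WT against Hemgn-/- contrast in view. Their values in this contrast are therefore given as a description, with no test. For 7 of the 8 genes the table gave values, and Ahsp, which encodes the chaperone of free alpha-globin, was not analysed here.

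RNA was measured in donor hematopoietic stem and progenitor cells (HSPCs) collected from recipient mice at 6 h after bone marrow transplantation (BMT), with 3 WT and 3 Hemgn-/- replicates. Donors were C57BL/6 mice carrying CD45.2. The Hemgn-/- animals carried, in the whole body, a small frameshifting deletion in the Hemgn coding sequence made with zinc finger nucleases, and the methods give WT littermates, with mice of 8 to 10 weeks. In both groups, 20000000 bone marrow cells were injected into CD45.1+ recipients that had received a split dose of 9 Gy, so irradiation of the host and transplantation were shared by all 6 libraries. The labels name CD45.2+Lin-Sca-1+ cells, whereas the design text and the methods add c-Kit. The name HSPCs is kept below as given, although neutrophil-lineage transcripts far exceeded those of HSPC markers in every library. The injection route (retro-orbital or tail vein) and the library preparation (TruSeq kit or Smart-Seq2 cDNA) also differ between these sources. How many mice contributed to a replicate is not given in the sources used here, and the p-values below measure only the spread between these libraries.

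Adult hemoglobin is a tetramer of alpha- and beta-globin chains, each holding a heme group, and in mice each chain is encoded by a pair of nearly identical genes. Red cell precursors make both chains and heme in step, transport heme precursors through the mitochondrion, and lay down a membrane skeleton before the nucleus is expelled. Transcription of these genes is known to depend on GATA1 and on KLF1, factors that bind GATA and CACCC-type motifs. Hemogen, the product of Hemgn, is a nuclear protein expressed in active hematopoietic sites.

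The copies of each globin are shown first because they limit what a per-gene value can mean. In GENCODE M21 transcripts on GRCm38, the coding sequences of Hba-a1 and Hba-a2 were 426 bases long without the stop codon and differed at 1 base, C381T, an identity of 99.77%. Position 1 is the A of the ATG, and the base of Hba-a1 is written before the position. The 60 bases that end at this position are given with the differing base in capitals, from the plus strand at chr11:32284284-32284343 for Hba-a1 and chr11:32297101-32297160 for Hba-a2.
Hba-a1: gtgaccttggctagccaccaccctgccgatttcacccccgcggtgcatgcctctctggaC
Hba-a2: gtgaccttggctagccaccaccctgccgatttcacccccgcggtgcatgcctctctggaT

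Hbb-bs and Hbb-bt had coding sequences of 441 bases, again with 1 difference, C417T, with the base of Hbb-bs before the position. The corresponding 60 bases lie on the minus strand at chr7:103826692-103826751 for Hbb-bs and chr7:103812683-103812742 for Hbb-bt.
Hbb-bs: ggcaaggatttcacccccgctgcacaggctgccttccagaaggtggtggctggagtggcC
Hbb-bt: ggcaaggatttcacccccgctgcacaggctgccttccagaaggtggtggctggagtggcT

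The longest identical coding run was 380 bases for the alpha pair and 416 bases for the beta pair. Of the 150-base windows of the Hba-a1 transcript, 266 of 550 (48.4%) were found unchanged in Hba-a2, which is 65.7% of the 405 windows of Hba-a2. Of the windows of Hbb-bs, 281 of 479 (58.7%) were found in Hbb-bt, which is 50.7% of the 554 windows of Hbb-bt. Sequencing was of 150-base paired ends, and how fragments that match both copies were counted is not given in the sources used here. The value of a single copy is therefore uncertain, whereas the summed fragments of a pair do not depend on how they were divided within it, although fragments left out for matching both copies would be missing.

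Stretches of 250 bases that end just before the RefSeq start site (GRCm38.p6) are shown for 4 genes, since the genes differed together and their promoters could be read for the motifs named above. Capitals mark matches, on either strand, to AGATAA or TGATAA and to CCNCNCCC. They lie at chr11:32296242-32296491 on the plus strand for Hba-a2, at chr7:103827929-103828178 on the minus strand for Hbb-bs, at chrX:150547167-150547416 on the plus strand for Alas2 and at chr6:34476106-34476355 on the plus strand for Bpgm.
Hba-a2: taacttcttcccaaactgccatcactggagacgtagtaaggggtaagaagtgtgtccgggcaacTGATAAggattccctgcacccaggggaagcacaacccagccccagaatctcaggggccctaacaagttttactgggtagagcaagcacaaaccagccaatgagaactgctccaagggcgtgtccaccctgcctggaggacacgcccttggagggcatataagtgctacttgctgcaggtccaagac
Hbb-bs: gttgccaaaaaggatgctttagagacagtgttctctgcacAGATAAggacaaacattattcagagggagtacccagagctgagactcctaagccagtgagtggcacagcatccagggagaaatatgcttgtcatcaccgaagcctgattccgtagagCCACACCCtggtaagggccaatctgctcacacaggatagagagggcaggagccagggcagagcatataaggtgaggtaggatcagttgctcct
Alas2: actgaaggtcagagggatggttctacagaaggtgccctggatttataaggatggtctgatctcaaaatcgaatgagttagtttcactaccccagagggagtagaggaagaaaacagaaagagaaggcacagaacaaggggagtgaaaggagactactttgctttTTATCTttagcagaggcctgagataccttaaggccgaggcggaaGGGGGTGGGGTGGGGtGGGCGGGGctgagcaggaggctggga
Bpgm: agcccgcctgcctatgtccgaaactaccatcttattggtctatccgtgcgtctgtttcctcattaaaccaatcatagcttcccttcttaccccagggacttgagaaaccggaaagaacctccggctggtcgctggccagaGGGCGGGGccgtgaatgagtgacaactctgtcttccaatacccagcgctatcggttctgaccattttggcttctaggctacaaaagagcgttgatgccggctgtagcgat

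Promoters were found for 6 of the genes, and the alpha copies carried a GATA match at almost the same distance from the start. A GATA match was present in 4 of 6, against 16.6% of 32851 promoters of the same length. The promoters of the alpha copies hold nearly the same sequence, so their matches are not independent of each other. A CCNCNCCC match was present in 4 of 6, against 45.9% of all promoters, and the 4 matches in Alas2 overlap in part with each other. Hbb-bs and Alas2 carried both kinds, which 4.5% of all promoters did. A match of letters is a description and not evidence of a bound factor.

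The level of Hemgn itself was compared first, although a small deletion leaves the rest of the transcript in place, so a gene-level value does not read out the edit directly. Its FPKM (fragments of a gene scaled by its transcript length and by the total of the library) was 5.64, 2.96 and 4.68 in WT replicates 1 to 3 and 0.755, 0.913 and 1.60 in Hemgn-/- replicates 1 to 3. The groups did not overlap, and Hemgn differed by -1.37 on the log2(FPKM + 1) scale (SE 0.232, adjusted p = 0.0114, limma). Without WT replicate 3 the adjusted p was 0.0503, and with no filter on low values it was 0.0613.

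Transcripts for both globin chains were lower in every Hemgn-/- library than in any WT library, in similar proportion, with WT means 16.8 and 15.6 times higher. The summed alpha-globin level was 301, 265 and 331 FPKM in the WT libraries and 14.1, 21.6 and 17.8 FPKM in the Hemgn-/- libraries. All 3 Hemgn-/- libraries lay far below the lowest WT library, and the lowest WT level was 12.3 times the highest Hemgn-/- level. The group means were 299 ± 33.1 and 17.8 ± 3.77 FPKM (SD, n = 3 each), a WT level 16.8 times higher and a difference of -4.01 on the log2(FPKM + 1) scale.

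The summed beta-globin level was 192, 156 and 183 FPKM in WT and 8.25, 13.4 and 12.2 FPKM in Hemgn-/- libraries. The groups again stood apart, with the lowest WT level 11.6 times the highest Hemgn-/- level. The means were 177 ± 19.0 and 11.3 ± 2.71 FPKM (SD, n = 3 each), a ratio of 15.6 and a difference of -3.87 on the log2(FPKM + 1) scale. In bulk RNA of sorted cells, fewer cells of a type and less RNA per cell cannot be told apart.

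**Figure D1:**
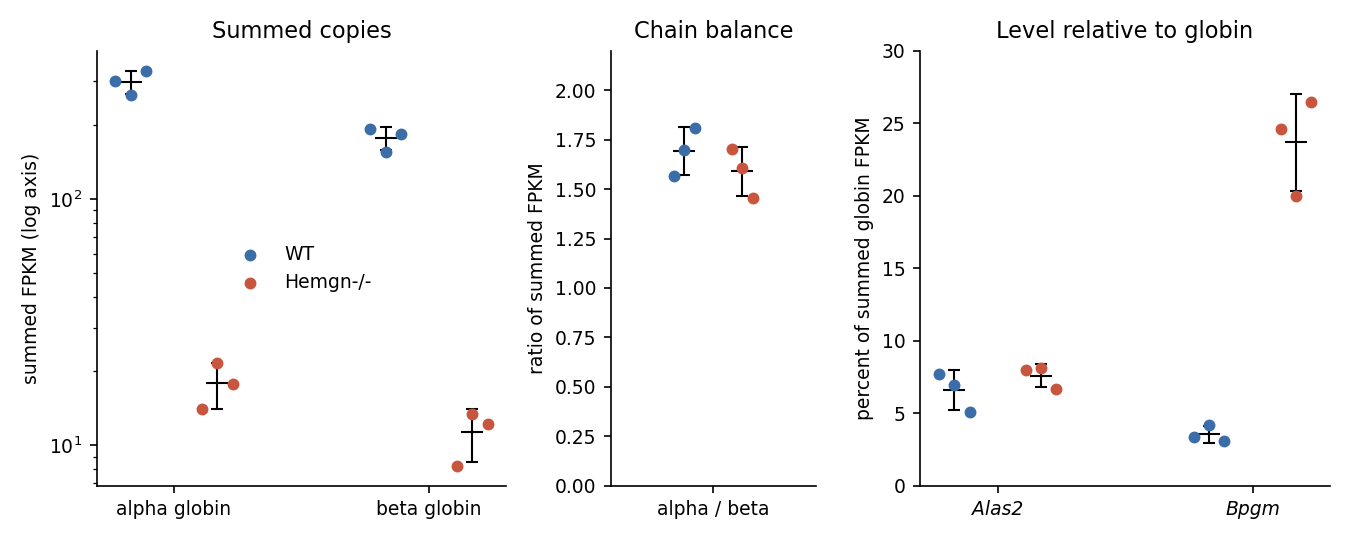
Summed FPKM of the alpha- and beta-globin copies (left, log axis), the ratio of the sums (middle) and the FPKM of Alas2 and Bpgm as a percent of summed globin FPKM (right). Points are single libraries, horizontal lines the means and error bars the SD (n = 3 each); both sums are lower in every Hemgn-/- library, with WT means 16.8 and 15.6 times higher, the ratio of alpha to beta and the percent of Alas2 overlap between the groups, and the percent of Bpgm is higher in every Hemgn-/- library.

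The balance between the chains was close in both groups. The ratio of summed alpha to summed beta FPKM was 1.57, 1.70 and 1.81 in WT and 1.70, 1.61 and 1.46 in Hemgn-/- libraries. These ranges overlapped, with means of 1.69 ± 0.122 and 1.59 ± 0.125 (SD, n = 3 each), so alpha and beta transcripts were lower by nearly the same factor. The sums rest on 5493 to 7432 alpha and 3052 to 3875 beta fragments in WT libraries, and on 312 to 459 alpha and 173 to 270 beta fragments in Hemgn-/- libraries.

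Hba-a1 (ENSMUSG00000069919, chr11:32283511-32284465 on the plus strand, GRCm38) received nearly all of the alpha-globin fragments as counted, which does not rank the copies by expression. It reached 299, 263 and 328 FPKM in WT and 13.8, 21.6 and 17.8 FPKM in Hemgn-/- libraries. This was the highest level of the set in both groups, and the groups did not overlap. The means of 296 ± 32.7 and 17.7 ± 3.91 FPKM (SD, n = 3 each) differed by -4.01 on the log2(FPKM + 1) scale, with WT 16.7 times higher. By mean FPKM it stood at rank 126 among all genes in WT and at rank 2672 in Hemgn-/- HSPCs.

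Hba-a2 (ENSMUSG00000069917, chr11:32296489-32297298 on the plus strand), the downstream alpha copy, was low throughout. Its FPKM was 2.79, 1.87 and 2.70 in WT and 0.273, 0 and 0 in Hemgn-/- libraries, which rests on 44, 32 and 50 fragments against 5, 0 and 0. It had the lowest mean of the set in the Hemgn-/- group, where replicates 2 and 3 held no fragment of it, and the groups did not overlap. The mean FPKM was 2.46 ± 0.505 in WT and 0.0911 ± 0.158 in Hemgn-/- (SD, n = 3 each), and the difference of -1.66 on the log2(FPKM + 1) scale understates a gene this low. Of all alpha fragments, Hba-a2 received 126 of 18709 in WT (0.673%, 95% Wilson interval 0.566% to 0.801%) and 5 of 1189 in Hemgn-/- (0.421%, 0.180% to 0.981%). These intervals pool the 3 libraries of a group and cover counting error only. By library the share was 0.761%, 0.583% and 0.673% in WT and 1.60%, 0% and 0% in Hemgn-/-. With all 5 Hemgn-/- fragments in replicate 1, the values cannot show whether the share of the alpha copies differed.

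Hbb-bs (ENSMUSG00000052305, chr7:103826534-103828096 on the minus strand) received most of the beta fragments as counted. Its level was 186, 151 and 176 FPKM in WT and 7.78, 12.9 and 11.4 FPKM in Hemgn-/- libraries. Hemgn-/- replicate 1 was the lowest library and WT replicate 1 the highest, with no overlap between groups. The means of 171 ± 18.1 and 10.7 ± 2.63 FPKM (SD, n = 3 each) differed by -3.90 on the log2(FPKM + 1) scale, with WT 16.0 times higher. It held rank 232 among all genes in WT and rank 3933 in Hemgn-/- HSPCs.

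Hbb-bt (ENSMUSG00000073940, chr7:103812524-103813996 on the minus strand), the other beta copy, was also low. It reached 6.13, 4.72 and 6.67 FPKM in WT and 0.467, 0.543 and 0.788 FPKM in Hemgn-/- libraries. No Hemgn-/- library exceeded 16 fragments for it, and no WT library had fewer than 85. The means of 5.84 ± 1.01 and 0.599 ± 0.168 FPKM (SD, n = 3 each) differed by -2.09 on the log2(FPKM + 1) scale, with WT 9.75 times higher. Pooled over the libraries of a group, its share of beta fragments was 317 of 10412 in WT (3.04%, 95% Wilson interval 2.73% to 3.39%) and 35 of 712 in Hemgn-/- (4.92%, 3.56% to 6.76%). These intervals cover counting error only. By library the share was 2.93%, 2.79% and 3.35% in WT and 5.20%, 3.72% and 5.93% in Hemgn-/-. Each Hemgn-/- library was above each WT library in this share, but the Hemgn-/- shares rest on 9 to 16 fragments each. An exact permutation test with 3 against 3 cannot go below a two-sided p of 0.1, and none is given for a share computed from the genes that were chosen on this contrast.

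**Figure D2:**
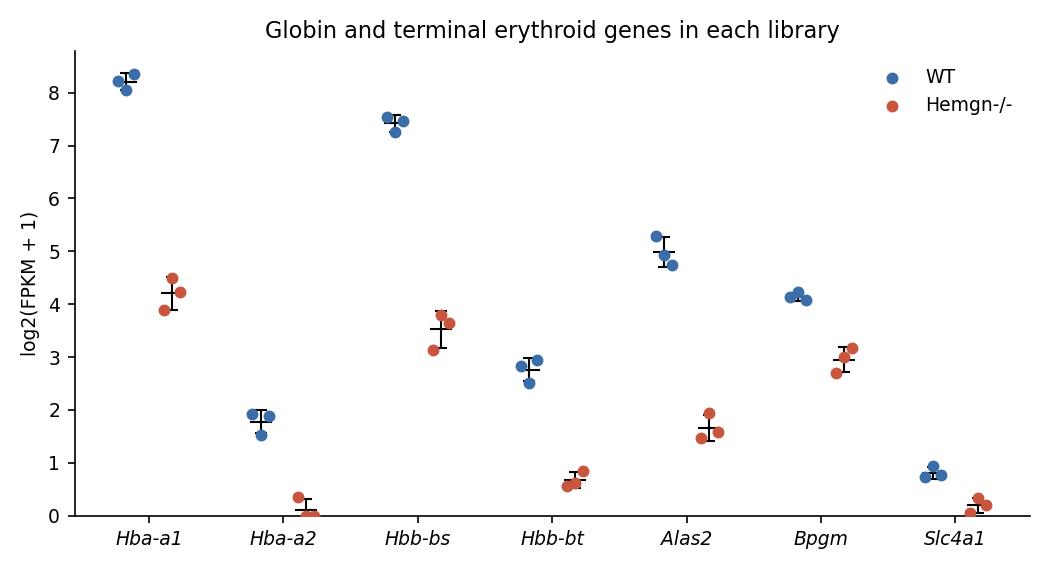
Level of the 7 genes with values in each library, as log2(FPKM + 1). Points are single libraries, horizontal lines the means and error bars the SD (n = 3 each); the WT points lie above the Hemgn-/- points for each gene, with the widest gap for Hba-a1 (a difference of -4.01) and the narrowest for Slc4a1 (-0.62).

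Alas2, on the X chromosome (ENSMUSG00000025270, chrX:150547375-150570638 on the plus strand), encodes the erythroid form of the enzyme that starts heme synthesis. Its level was 38.1, 29.3 and 25.9 FPKM in WT and 1.77, 2.85 and 2.00 FPKM in Hemgn-/- libraries. The lowest WT library was 9.11 times the highest Hemgn-/- library. The means of 31.1 ± 6.28 and 2.21 ± 0.565 FPKM (SD, n = 3 each) differed by -3.32 on the log2(FPKM + 1) scale, with WT 14.1 times higher. Set against globin, the FPKM of Alas2 came to 7.71%, 6.97% and 5.05% of the summed globin FPKM in WT and 7.96%, 8.13% and 6.66% in Hemgn-/- libraries. These percentages overlapped, so Alas2 was lower by about the same factor as globin.

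Bpgm (ENSMUSG00000038871, chr6:34476207-34505613 on the plus strand) encodes the enzyme that makes bisphosphoglycerate, which lowers the oxygen affinity of hemoglobin. It was measured at 16.6, 17.7 and 15.8 FPKM in WT and 5.48, 7.00 and 7.96 FPKM in Hemgn-/- libraries. The groups did not overlap, yet the gap was the narrowest of the set as a ratio. The means of 16.7 ± 0.935 and 6.81 ± 1.25 FPKM (SD, n = 3 each) differed by -1.19 on the log2(FPKM + 1) scale, with WT 2.45 times higher. Relative to summed globin FPKM, Bpgm stood at 3.36%, 4.21% and 3.09% in WT and 24.6%, 20.0% and 26.5% in Hemgn-/- libraries. Bpgm thus moved from below Alas2 in WT to above it in Hemgn-/- HSPCs in the order of FPKM.

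Slc4a1 (ENSMUSG00000006574, chr11:102348824-102366203 on the minus strand) encodes the chloride and bicarbonate exchanger that anchors the red cell membrane skeleton. Its level was 0.657, 0.919 and 0.708 FPKM in WT and 0.0373, 0.266 and 0.149 FPKM in Hemgn-/- libraries. It rests on 76, 115 and 96 fragments in WT and 5, 34 and 21 in Hemgn-/-, and the groups did not overlap. The means of 0.761 ± 0.139 and 0.150 ± 0.114 FPKM (SD, n = 3 each) give a WT level 5.06 times higher, and a difference of -0.62 on the log2(FPKM + 1) scale. As no library exceeded 1 FPKM, it did not enter the fit across genes.

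The order of mean FPKM in WT was Hba-a1, Hbb-bs, Alas2, Bpgm, Hbb-bt, Hba-a2 and Slc4a1. WT ranges of neighbours in this order did not overlap at any step. In Hemgn-/- HSPCs, Bpgm came before Alas2 and Slc4a1 before Hba-a2, and the ranges of Slc4a1 and Hba-a2 overlapped, as 0.273 FPKM of Hba-a2 in replicate 1 lay above all 3 values of Slc4a1. Within WT, replicate 2 was the lowest library for all 4 globin copies but the highest for Bpgm and Slc4a1. Within Hemgn-/-, replicate 1 was the lowest library for Hba-a1, Hbb-bs, Hbb-bt, Alas2, Bpgm and Slc4a1, whereas for Hba-a2 it was the only one with fragments.

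Of the 7 genes with values, all had lower values in each Hemgn-/- library than in any WT library, and 6 passed the filter of FPKM above 1 in at least 1 library. Of the 13739 genes tested, 8.18% lay lower in all Hemgn-/- libraries in this way. In the fit across these genes, 2.09% had an adjusted p under 0.05 and a lower level in Hemgn-/- HSPCs, and 4.37% a higher one. The 6 genes that passed the filter were part of this fit, but no call is given for them, since they were picked on this contrast. For the same reason, nothing is read from their lack of overlap. The median log2 difference over all genes tested was 0.087.

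The wider erythroid programme was described with the same fit, here with tests. Of 75 further genes in 6 lists, 70 had values and 50 were tested. At an adjusted p under 0.05, 2 were lower (4.0%, against 2.09% of all genes tested) and 0 higher (against 4.37%). At an unadjusted p under 0.05, 3 were lower and 2 higher (limma). Their median log2 difference was 0.05, beside 0.087 over all genes tested, with a range from -1.10 to 0.46. In 22 of the 50 the mean was lower in Hemgn-/- HSPCs, and 5 lay below all WT libraries, beside 8.18% of all genes tested. Another 4 lay above all WT libraries, beside 19.2% of all genes tested.

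**Figure D3:**
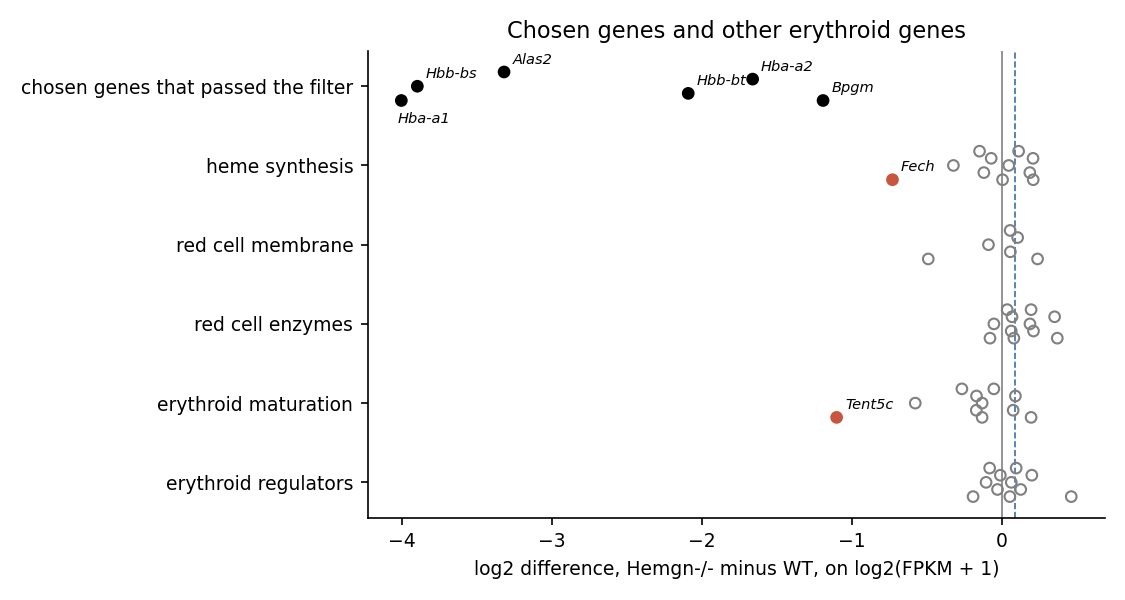
Differences in log2(FPKM + 1), Hemgn-/- minus WT, for the 6 chosen genes that passed the filter (top row) and for the tested genes of each erythroid list. Each point is 1 gene, filled in red where it passed the test and open where it did not. The dashed line is the median of all genes tested (0.087). The chosen genes (black, no call given) lie between -4.01 and -1.19. The tested genes of the other lists lie between -1.10 and 0.46, with Fech and Tent5c as the 2 called lower.

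Among the genes of heme synthesis and heme precursor transport, 11 of 12 were tested, with 1 lower and 0 higher and a median log2 difference of 0.0053. Fech, which inserts iron into protoporphyrin at the last step, was at 16.6, 14.8 and 17.3 FPKM in WT and 9.12, 9.63 and 9.36 FPKM in Hemgn-/- libraries. The groups did not overlap, and Fech fell by 0.73 on the log2(FPKM + 1) scale (SE 0.0968, adjusted p = 0.00408, limma). Alad, which acts directly after the Alas enzymes and was chosen for mention after its values were seen, was at 21.5, 20.4 and 18.9 FPKM against 16.3, 15.0 and 16.6 FPKM. All Hemgn-/- values of Alad were below the WT values, with a difference of -0.32 (SE 0.0912) that did not pass the test (adjusted p = 0.0782, limma). Alas1, the form of the first enzyme found in most cells, had 76.3, 75.4 and 84.7 FPKM against 84.6, 65.1 and 68.8 FPKM, with overlap (adjusted p = 0.559, limma). Tmem14c and Urod, a mitochondrial porphyrin carrier and an enzyme of the pathway, had differences of 0.01 and 0.05 (adjusted p = 0.989 and 0.803, limma). Ppox, which forms protoporphyrin, was at 17.3, 17.2 and 18.03 FPKM in WT and 18.4, 20.9 and 22.1 FPKM in Hemgn-/- libraries. All its Hemgn-/- values were above the WT values, with a difference of 0.21 that did not pass the test (adjusted p = 0.245, limma).

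Of the other globins, Hbq1b, a theta-globin gene that lies between the alpha copies, had 13, 14 and 10 fragments in WT and 0 in each Hemgn-/- library, an FPKM of 0.758, 0.755 and 0.498 against 0. Against a floor of 3 counts over the group, it was at least 13.2-fold lower in Hemgn-/- HSPCs, with no test, since it did not pass the filter. Hbq1a was at 0.07, 0 and 0.0597 FPKM in WT and at 0 in Hemgn-/-. The embryonic globins Hba-x, Hbb-y, Hbb-bh1 and Hbb-bh2 were not analysed here.

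Red cell membrane genes were mostly near the limit of measurement. Of 20 listed, 19 had values and 6 passed the filter, and 0 were lower or higher, with a median difference of 0.057. Add1, Gypc, Epb41 and Aqp1, which other blood cells also express in part, had differences of 0.06, 0.24, 0.11 and 0.06. Sptb and the ankyrin gene Ank1, which encode parts of the membrane skeleton and were also chosen after their values were seen, stayed below 1 FPKM in all libraries.

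The red cell enzymes gave 11 tested genes, with 0 lower and 0 higher and a median difference of 0.081. Pgam1, a glycolytic enzyme of the same family as Bpgm, was at 103, 105 and 86.7 FPKM in WT and 95.2, 108 and 109 FPKM in Hemgn-/- libraries. The groups overlapped (difference 0.08, adjusted p = 0.665, limma). Cat, Car2 and Hk1 had differences of 0.21, 0.04 and 0.06. Pklr, a pyruvate kinase chosen for mention after its values were seen, had 3, 14 and 17 fragments in WT and 0 in each Hemgn-/- library. Its FPKM was 0.0392, 0.169 and 0.190 against 0. Against a floor of 3 counts over the group, Pklr was at least 12.1-fold lower in Hemgn-/- HSPCs, with no test, since it did not pass the filter.

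Among the genes of erythroid maturation, which include factors for the removal of organelles, 11 were tested, 1 was lower and 0 higher, and the median difference was -0.13. Tent5c, a poly(A) polymerase, was at 7.62, 8.48 and 7.88 FPKM in WT and 2.30, 4.73 and 2.88 FPKM in Hemgn-/- libraries. All Hemgn-/- values lay below the WT values, and Tent5c fell by 1.10 (SE 0.194, adjusted p = 0.0131, limma). This call was lost without Hemgn-/- replicate 3 (adjusted p = 0.0617) and with no filter on low values (0.0626). Bnip3l, which directs the removal of mitochondria, was at 85.9, 78.4 and 78.9 FPKM against 74.1, 70.4 and 77.3 FPKM (difference -0.13, adjusted p = 0.349, limma). Mxi1, Ulk1 and Foxo3 had differences of -0.27, 0.09 and 0.20.

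The erythroid regulators held 11 tested genes, with 0 lower and 0 higher and a median difference of 0.054. Nfe2, a factor that binds the globin locus control region, was at 107, 111 and 112 FPKM in WT and 101.2, 109 and 114 FPKM in Hemgn-/- libraries. The groups overlapped (adjusted p = 0.849, limma). E2f2, Lmo2 and Gfi1b had differences of 0.10, -0.08 and -0.19. Gata1 and Klf1, named above with the motif types, were chosen for mention after their values were seen. Gata1 was at 4.11, 2.88 and 3.58 FPKM in WT and 4.17, 3.34 and 4.27 FPKM in Hemgn-/- (adjusted p = 0.671, limma). Klf1 was at 2.29, 1.05 and 2.74 FPKM against 1.12, 2.35 and 1.85 FPKM (adjusted p = 0.856, limma). Both overlapped between groups, and the spread of Klf1 within each group was wide.

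The tested neighbours of the globin clusters all lay at the alpha cluster. Their mean levels were higher, not lower, in Hemgn-/- HSPCs, although none passed the test. Within 150 kb of the outer genes of the alpha cluster, Il9r was at 1.06, 1.41 and 1.60 FPKM in WT and 2.46, 2.74 and 2.46 FPKM in Hemgn-/- libraries, all above WT (difference 0.60, adjusted p = 0.0648, limma). Mpg was at 1.54, 0.937 and 0.875 FPKM against 2.50, 1.84 and 2.33 FPKM (difference 0.61, adjusted p = 0.1, limma). Nprl3, whose introns hold the known alpha-globin enhancers, was at 0.826, 0.80 and 0.662 FPKM against 1.03, 1.04 and 1.11 FPKM (difference 0.23, adjusted p = 0.533, limma). Snrnp25 had a difference of 0.33 (adjusted p = 0.204, limma). Il9r, Mpg and Nprl3 lay higher in all Hemgn-/- libraries, as 19.2% of all genes tested did, whereas Snrnp25 overlapped between groups. Rhbdf1, Sh3pxd2b and Gm12109 near the alpha cluster did not pass the filter, nor did Dnajc19-ps, the only other listed gene near the beta cluster.

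The 5 tested genes whose log2(FPKM + 1) followed that of the summed globin most closely over the 6 libraries were Fcnb (r = 0.999), Prg2 (0.998), Hdac4 (0.997), Igha (0.997) and Igkv3-5 (0.996). These coefficients are a description over 2 groups of 3 libraries and mostly restate that a gene was lower in all Hemgn-/- libraries. Fcnb, a ficolin of myeloid precursors, was at 101.1, 91.6 and 96.8 FPKM in WT and 30.9, 36.4 and 32.2 FPKM in Hemgn-/- libraries. Prg2, the major basic protein of eosinophil granules, was at 263, 233 and 290 FPKM against 56.7, 68.0 and 70.4 FPKM. Igha, the constant region of immunoglobulin A, was at 796, 777 and 798 FPKM against 343, 411 and 356 FPKM. None of the 5 belongs to an erythroid list.

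Markers of other cells differed between the groups alongside globin. The counts called per list stand beside 2.09% lower and 4.37% higher among all genes tested, at an adjusted p under 0.05 (limma). The HSPC markers, with which the labelled identity was checked, summed to 36.3 to 43.2 FPKM in WT and 48.9 to 57.8 FPKM in Hemgn-/- libraries (0 of 11 lower, 2 higher). Kit was at 6.14, 6.36 and 7.24 FPKM in WT and 5.50, 5.90 and 5.65 FPKM in Hemgn-/- (adjusted p = 0.398, limma). Ly6a, which encodes Sca-1, was at 9.64, 8.27 and 10.2 FPKM in WT and 11.4, 15.4 and 17.3 FPKM in Hemgn-/- (adjusted p = 0.0642, limma). Cd34 and Cd48 were the 2 called higher, with differences of 0.45 and 0.48 (adjusted p = 0.0427 and 0.0332, limma), and no listed marker was at 0 in all libraries. Neutrophil markers summed to 74619 to 79989 FPKM in WT and 48440 to 54337 FPKM in Hemgn-/- (4 of 11 lower, 1 higher), so by level neutrophil-lineage transcripts far exceeded those of HSPC markers in every library, against the label of HSPCs. Ngp, a secondary granule gene of neutrophil precursors, made up most of this sum, with 43176 to 46692 FPKM in WT and 26488 to 27961 FPKM in Hemgn-/-. Members of mature neutrophils did not follow it, as Cxcr2 was the 1 called higher (difference 0.58, adjusted p = 0.000663, limma) and Mmp9 and Retnlg overlapped between groups. Granulocyte precursor markers summed to 688 to 736 FPKM against 483 to 530.01 FPKM (3 of 5 lower, 0 higher).

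Eosinophil markers summed to 271 to 332 FPKM in WT and 70.2 to 86.3 FPKM in Hemgn-/- (3 of 7 lower, 0 higher). Macrophage markers, of interest because macrophages of the marrow take up red cell nuclei, summed to 207 to 239 FPKM against 187 to 213 FPKM (2 of 9 lower, 1 higher). Within that list Vcam1 was at 11.03, 9.37 and 10.2 FPKM in WT and 6.50, 5.78 and 5.97 FPKM in Hemgn-/- (adjusted p = 0.0094, limma). C1qb was also lower (difference -0.44, adjusted p = 0.0234, limma), whereas Adgre1 was higher (difference 0.51, adjusted p = 0.0343, limma). B cell markers summed to 1157 to 1216 FPKM against 1378 to 1550.2 FPKM (0 of 6 lower, 3 higher), and T and NK cell markers to 125 to 132 FPKM against 146 to 164 FPKM (0 of 9 lower, 2 higher). Megakaryocyte markers summed to 16.9 to 22.2 FPKM against 20.0 to 22.5 FPKM (0 of 7 lower or higher), and those of basophils and mast cells to 468 to 518 FPKM against 498 to 527 FPKM (0 of 5 lower or higher). The part of these cells in the globin difference was not tested.

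**Figure D4:**
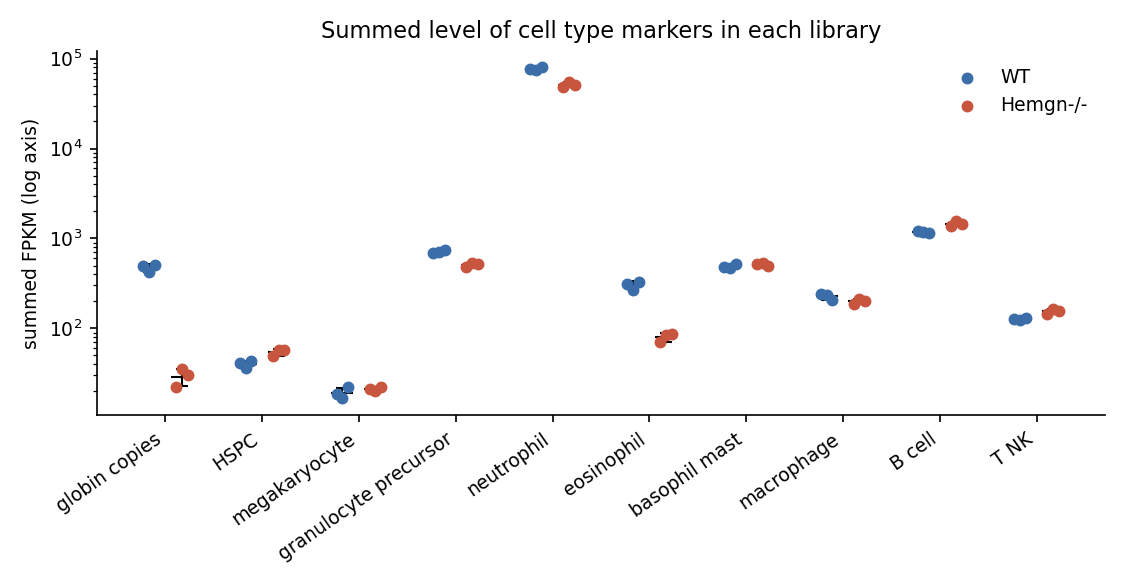
Summed FPKM of the 4 globin copies and of each marker list, on a log axis. Points are single libraries, horizontal lines the means and error bars the SD (n = 3 each); the WT and Hemgn-/- points of globin stand apart (420 to 513 FPKM against 22.3 to 35.02 FPKM), as do those of eosinophil markers (271 to 332 FPKM against 70.2 to 86.3 FPKM), while megakaryocyte markers overlap.

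Set against each list, the summed globin level of all 4 copies was 494, 420 and 513 FPKM in WT and 22.3, 35.02 and 30.05 FPKM in Hemgn-/- libraries. The ratio of group means was 16.3 for globin, 3.79 for eosinophil markers, 1.495 for neutrophil markers, 1.40 for granulocyte precursor markers and 1.13 for macrophage markers. Globin was thus lower by a larger factor than any of these sums, which is a description, since the globin genes were chosen for it. The eosinophil sum joins unlike members, of which 5 of 7 had a lower mean in Hemgn-/- HSPCs. Among these, the eosinophil marker Epx was 9.33 times higher in WT, beside 5.06 times for Slc4a1 and 2.45 times for Bpgm. The macrophage sum also joins unlike members, and its largest, Hmox1, had means of 120 FPKM in WT and 121 FPKM in Hemgn-/-. Of the 9 macrophage markers, 5 were lower in all Hemgn-/- libraries than in any WT library, beside 8.18% of all genes tested. In the other direction, 1 was higher in all, beside 19.2%.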

How the data were processed

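RNA-seq of 3 WT and 3 Hemgn-/- replicates was used. The authors deposited FPKM values per gene, with 1 column for each library and no counts, and 0 columns were left unmapped. The submitters' processing notes name GRCm38, Bowtie2 2.2.3, HISAT2 2.1.0, TopHat2 and HTSeq 0.6.0 without their roles, and the annotation is not given in the sources used here. Libraries were grouped by the labelled genotype. The columns headed for knockout were matched to labels by genotype and replicate number.

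Of 24965 Ensembl identifiers, 24921 matched GENCODE M21. Depth was recovered from the steps of low FPKM values with M21 exon lengths: 23668015 to 28897360 fragments a library. Of 13466 genes with at most 100 fragments, 95.4% came out whole within 0.02 in all 6 libraries. Fragments from amplified cDNA are not independent molecules, so intervals and floors cover counting error only.

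The globin and terminal erythroid genes and all lists were chosen with earlier results of these data known. The chosen genes were described without a test, although the 6 that passed the filter were part of the fit. For all genes that exceeded 1 FPKM in 1 library or more, log2(FPKM + 1) was fitted with limma (version 3.58.1, R version 4.3.3). The fit used lmFit and a trended eBayes, on a scale that understates the change of low genes. Tests are two-sided with Benjamini-Hochberg adjustment over all 13739 genes, and differences are Hemgn-/- minus WT. Genes named are the chosen genes, Hemgn, list genes past the test and up to 4 others per list by mean FPKM (with Alad, Gata1, Klf1, Sptb, Ank1, Pklr and Bcl11a added after their values were seen), tested neighbours within 150 kb, the 5 genes most like summed globin, and defining markers. Lists covered heme synthesis, other globins, red cell membrane, red cell enzymes, erythroid maturation and erythroid regulators, and markers of HSPC, megakaryocyte, granulocyte precursor, neutrophil, eosinophil, basophil and mast, macrophage, B, and T and NK cells.

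Alternatives were a pseudocount of 0.1, median-ratio, same-total and quantile scaling, the replicate number as a block, limma voom on recovered fragments, other filters, eBayes without a trend, and leaving out each library. The fit was tested on simulated data. Python 3.11.15, numpy 2.4.6, pandas 2.3.3 and matplotlib 3.10.9 were used otherwise. Promoters are from RefSeq (GRCm38.p6).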

Additional observations from a re-analysis of the deposited data

How the results depend on the processing

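The summed alpha-globin difference of -4.01 lay between -4.11 and -3.92 under the other scalings, pseudocount and model, and between -4.15 and -3.86 when 1 library was left out. The summed beta-globin difference of -3.87 lay between -3.99 and -3.79, and between -4.00 and -3.68 when 1 library was left out. Single low genes moved with the pseudocount. At a pseudocount of 0.1, the differences were -4.02 for Hba-a2, -3.10 for Hbb-bt, -3.77 for Alas2 and -1.88 for Slc4a1, and with voom -5.33, -3.25, -3.82 and -2.67.

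Of the further erythroid genes, 2 were called lower, and 1 to 2 when 1 library was left out, with 1 without Hemgn-/- replicate 3. Alad joined them (3 lower) under median-ratio and quantile scaling (adjusted p = 0.0331 and 0.0398). With no filter the 2 were Fech and Hbq1b (adjusted p = 0.0210 for the latter). The adjusted p of Fech ranged from 0.000259 to 0.0250 and that of Tent5c from 0.00222 to 0.0626. None was called higher, except 2 when libraries were rescaled to the same FPKM total (Bcl11a, adjusted p = 0.0365, and Cat, 0.0479) and 1 with voom (Bcl11a, 0.0189); Bcl11a, a repressor of embryonic globin, was at 3.31, 2.79 and 3.62 FPKM in WT and 5.04, 4.98 and 4.48 FPKM in Hemgn-/- libraries (adjusted p = 0.0745 as reported). The cause was not tested. The median of all genes was 0.157 with that rescaling and 0.0068 with median-ratio scaling.

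Libraries with the same replicate number did not deviate together over all genes tested (correlations of -0.043, -0.0094 and 0.011), which gave no sign of pairing. A factor shared by such libraries that acts on few genes would not show in these correlations. With the replicate block, 2 genes were called lower and 0 higher, and the alpha- and beta-globin differences stayed at -4.01 and -3.87.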
